A study of Caenorhabditis elegans with 16 samples.

Results

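Small RNAs over genes of the sperm programme were followed in 16 libraries of young adult Caenorhabditis elegans hermaphrodites. The members were 31 listed symbols of the major sperm protein (msp), ssp, gsp, spe and fer families, which matched 32 genes of the WBcel235 annotation because 2 neighbouring genes carry the symbol ssp-9. RefSeq names the gene at IV:4999485–4999814 ssp-11, and it is written ssp-9|ssp-11 here. These genes overlapped 59 of the 100257 deposited 1000 bp bins and are 32 of the 46890 genes of the annotation. Of the 59 bins, 40 had a mean of at least 5 RPKM, a read count scaled to length and library size, over the 16 libraries and entered the tests, which covered 25407 bins in all. They were 27 of 29 msp bins, 4 of 7 ssp bins, 4 of 4 gsp bins, 5 of 11 spe bins and 0 of 9 fer-1 bins.

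Wild type (N2), met-2(n4256) set-25(n5021) and 2 single mutants of set-32, alleles ok1457 and red11, made up 4 backgrounds. Every background was sampled with hrde-1 never mutated, with the tm1200 allele, and after repair of that allele. Repaired lines were sampled at F20 and at an early generation, which was F8 for set-32(ok1457) and F5 for the others. HRDE-1 is the nuclear Argonaute of the germline. SET-32 has a SET domain, while SET-25 and MET-2 methylate histone H3. Per the series title the question is how SET-32 takes part in starting heritable silencing. Each genotype had 1 library, so p-values measure the spread between backgrounds or states and not between cultures. How many animals or repaired lines stood behind a library is not given in the sources used here.

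Hermaphrodites of this species make sperm as larvae, store them, and then switch the same germline to oocytes. Sperm genes are known as targets of small RNAs during spermatogenesis, when 26G-RNAs bound by the Argonautes ALG-3 and ALG-4 and the secondary siRNAs made after them act on spermatogenesis transcripts. Major sperm protein builds the cytoskeleton that moves the sperm and is also released as the signal that makes oocytes mature. In whole animals, fewer sperm or spermatocytes and fewer small RNAs per cell cannot be told apart.

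The read depth was low. A single read was worth 1.45 to 6.30 RPKM in a bin (median 2.45), which corresponds, in units of 1000 reads, to 142.9 to 500.1 in the bins of a library. The libraries also split by their table totals, which the labels do not give, and this split partly follows genotype and state. In set-32(ok1457) and set-32(red11), each never mutant and hrde-1 mutant, and in met-2 set-25 at F5, the RPKM values summed to between 89.98 and 96.7% of 1 per-million total, and in the other libraries to between 67.7 and 80.5%. In these 5 libraries intestine markers summed to 138 to 616 RPKM, against 4414 to 12429 RPKM in the other 11. Sums over the 21 msp genes overlapped between these sets of libraries, at 112 to 876 and 351 to 1293 RPKM. The part of this split in the results below was not tested, except where a value with the split as a term is given.

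The median level of small RNAs was higher in msp bins that hold more bases of the gene. All 21 msp genes are 384 bp long, 8 on chromosome II and 13 on chromosome IV. The 13 bins that hold a whole msp gene had means over the 16 libraries of 19.2 to 37.9 RPKM (median 26.5). The 12 bins with 103 to 370 bp of a gene had 8.54 to 28.8 RPKM (median 17.1), and the 4 bins with 14 to 74 bp had 1.13 to 15.4 RPKM (median 4.20). The highest of these last 4 bins, over msp-142, also holds another msp gene, msp-63. Neighbouring bins without a listed sperm gene had a median of 2.67 RPKM (38 bins, range 0.021 to 59.1 RPKM), and all bins tested had a median of 14.1 RPKM.

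**Figure D1:**
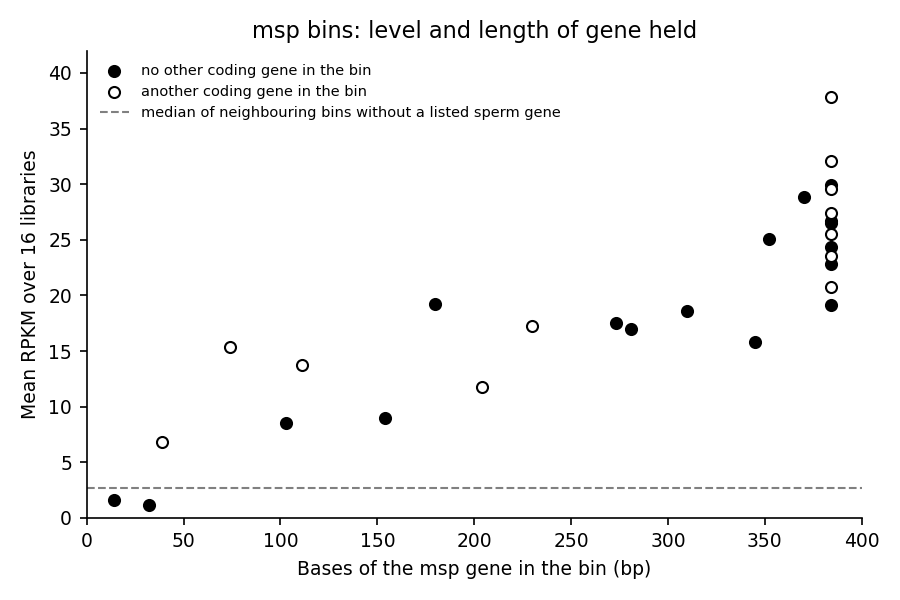
Mean RPKM over the 16 libraries (vertical axis) against the number of msp gene bases held by a bin (horizontal axis, bp) for the 29 msp bins, filled where the bin holds no other coding gene. Bins with the whole 384 bp gene lie between 19.2 and 37.9 RPKM and bins with 103 to 370 bp between 8.54 and 28.8 RPKM, so that the ranges overlap while the medians differ (26.5 and 17.1 RPKM). The dashed line is the median of the neighbouring bins at 2.67 RPKM, which ranged from 0.021 to 59.1 RPKM.

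The msp copies are near-identical, and their values cannot be read as those of separate genes. Across all bins, 63.9% of values worth under about 8 reads were within 0.05 of a whole number of reads, whereas this held for 12.6% of such values in msp bins and 26.7% in ssp bins. The share was 48.1% in gsp bins, 59.7% in spe bins and 40.5% in fer-1 bins (42 values). Whether gsp-3 and gsp-4 share reads was not tested, and the 4 gsp bins come from these 2 genes. How reads with several matches were counted is not given in the sources used here, so msp and ssp values are described below mainly as sums over the family. Where msp or ssp genes and bins are counted below, the counts are not of independent values.

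The msp genes were highest in N2 and lowest in never mutant set-32(ok1457). In wild type the 21 genes summed to 1293 RPKM in N2, 906 in the hrde-1 mutant, 351 at F5 and 488 at F20. In set-32(ok1457) they summed to 112 RPKM with hrde-1 never mutant, 435 in the mutant, 553 at F8 and 442 at F20. The set-32(red11) sums were 512.5 RPKM, 876, 376 and 570.4 in the same order of states, and the met-2 set-25 sums 676 RPKM, 459, 457 and 665. N2 was thus 11.6-fold above never mutant set-32(ok1457), or about 892 reads against 39.2. Without these 2 libraries the other 14 spanned 2.58-fold, from 351 to 906 RPKM.

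The spread between backgrounds differed by state. Over the 4 backgrounds the msp sums were 648 ± 491 RPKM (mean ± SD) with hrde-1 never mutant, 669 ± 257 in mutants, 434 ± 91.1 in early repaired libraries and 541 ± 98.2 at F20. Never mutant libraries included both the highest and the lowest sum, and F20 libraries lay between 442 and 665 RPKM. The groups of all 4 states overlapped.

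**Figure D2:**
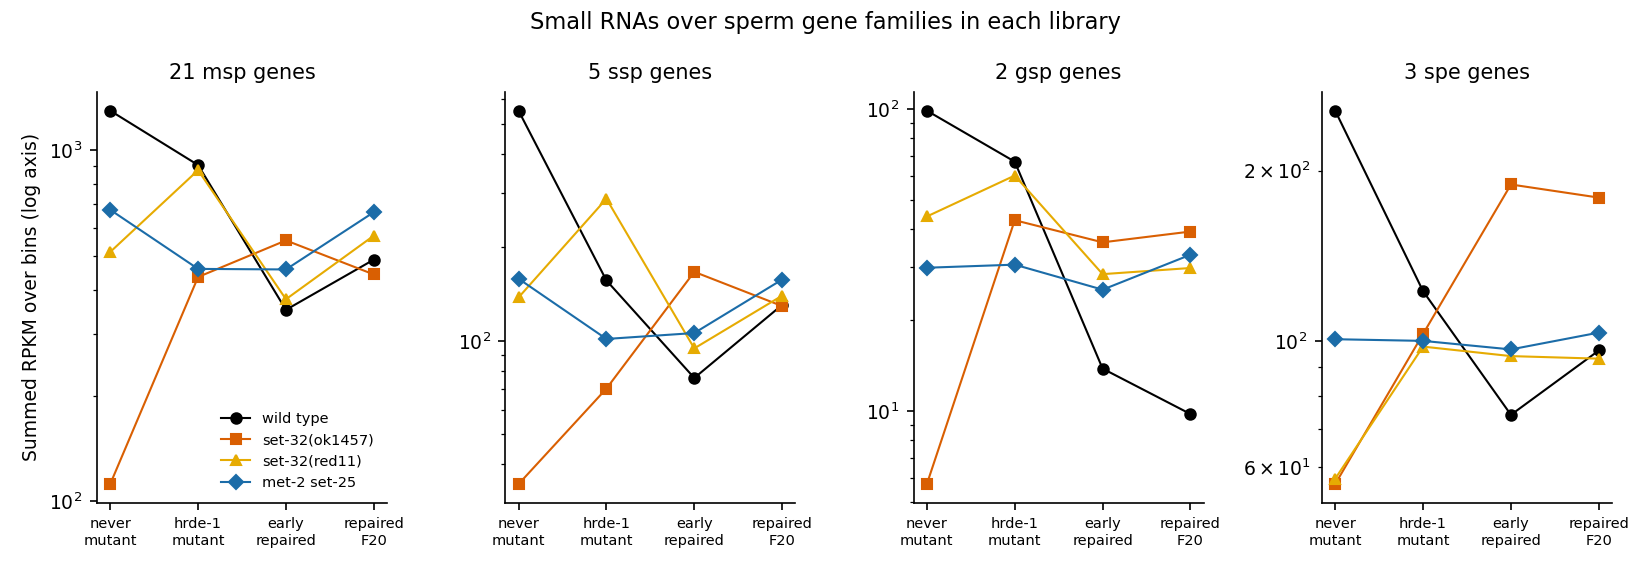
RPKM summed over the bins of the msp, ssp, gsp and spe genes (vertical log axes) in the 16 libraries, by state of hrde-1 (horizontal axis), with 1 line per background and no replicates. N2 is the highest point of each panel (1293 RPKM for msp) and never mutant set-32(ok1457) the lowest (112 RPKM for msp).

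Among single msp genes, msp-36 (IV:10095433–10095816) had the highest mean, 37.9 RPKM, in a bin that also overlaps the coding gene C04G2.5. It stood at 110.9 RPKM in N2, 63.1 in the wild-type hrde-1 mutant, 19.4 at F5 and 33.0 at F20. In set-32(ok1457) it stood at 7.81, 16.8, 49.0 and 23.3 RPKM, in set-32(red11) at 31.9, 50.6, 25.9 and 35.7, and in met-2 set-25 at 45.0, 26.1, 29.8 and 37.5. The order of the libraries at its ends was that of the family, with N2 highest and never mutant set-32(ok1457) lowest. Summed over its bins, N2 was the highest library for 18 of the 21 msp genes; the exceptions were msp-50 and msp-78, highest in the set-32(red11) hrde-1 mutant, and msp-152, highest in the wild-type hrde-1 mutant. Never mutant set-32(ok1457) was the lowest library for 20 of 21, and msp-59 was lowest in set-32(red11) at F5 (15.6 RPKM, against 16.7 in never mutant set-32(ok1457)).

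The ssp genes code for small sperm proteins with an MSP domain. The 5 genes summed to 551 RPKM in N2, 157 in the wild-type hrde-1 mutant, 76.0 at F5 and 131 at F20. In set-32(ok1457) the sums were 34.6, 70.2, 167 and 129 RPKM, in set-32(red11) 138, 287, 94.6 and 140, and in met-2 set-25 159, 101, 106 and 158. N2 lay 15.9-fold above never mutant set-32(ok1457), or about 380 reads against 12.1, and 4.09-fold separated the second highest and second lowest libraries.

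ssp-16 (I:6102067–6102396), alone in its bin, accounted for much of the N2 sum. It was at 295.2 RPKM in N2, 53.2 in the wild-type hrde-1 mutant, 22.6 at F5 and 51.5 at F20. In set-32(ok1457) it was at 17.2, 21.3, 70.8 and 66.7 RPKM, in set-32(red11) at 32.2, 111 (the mutant), 33.0 and 42.3, and in met-2 set-25 at 71.5, 39.9, 34.6 and 56.3. The other 15 libraries thus lay at or below 111 RPKM. ssp-9 and ssp-9|ssp-11 had close values in most libraries, 78.6 and 80.1 RPKM in N2 and 5.72 each in never mutant set-32(ok1457), and reads of these copies may be shared. ssp-10 ranged from 0.63 RPKM in the set-32(ok1457) hrde-1 mutant to 81.2 in N2, and ssp-32, whose bins did not pass the filter, was at 16.2 RPKM in N2, at up to 4.14 elsewhere and listed at 0 in 4 libraries.

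gsp-3 and gsp-4 code for sperm-specific PP1-type phosphatases needed for sperm meiosis and motility. Together they summed to 98.7 RPKM in N2, 66.9 in the wild-type hrde-1 mutant, 13.8 at F5 and 9.76 at F20. The set-32(ok1457) sums were 5.72 RPKM, 42.8, 36.2 and 39.3, those of set-32(red11) 44.0, 60.2, 28.4 and 29.7, and those of met-2 set-25 29.8, 30.5, 25.2 and 32.9. The 4 met-2 set-25 libraries stayed between 25.2 and 32.9 RPKM, while the wild-type libraries lay between 9.76 and 98.7 RPKM. In the lowest of these, at F20, 3 reads in a bin are worth 7.33 RPKM.

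gsp-4 (I:3838237–3839673) was at 60.9, 37.8, 5.52 and 4.88 RPKM in the wild-type libraries, from N2 to F20. In the same order of states set-32(ok1457) had 5.72, 27.8, 22.6 and 14.8 RPKM, set-32(red11) 18.4, 27.5, 18.2 and 17.2, and met-2 set-25 10.2, 9.38, 12.6 and 19.9. gsp-3 was at 37.8 RPKM in N2 and listed at 0 in never mutant set-32(ok1457), a library in which 3 reads in a bin are worth 8.58 RPKM. It lay at 4.88 to 32.7 RPKM in the other 14.

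The spe genes were measured mostly in bins that hold something else. All 5 spe bins tested overlap another gene. spe-9, which codes for a sperm surface protein with EGF repeats needed for fertilization, had its highest bins at I:11584001–11585000 (mean 41.6 RPKM) and I:11585001–11586000 (31.0 RPKM), which hold 2 tRNA genes and 1 tRNA gene in turn, and an ncRNA gene each. The bin at I:11586001–11587000 (20.2 RPKM) holds 69 bp of spe-9 beside C17D12.5. The bin at I:11583001–11584000, inside spe-9 with no other gene, had a mean of 0.52 RPKM. Whether any of the small RNAs summed over spe-9 come from its transcript was not tested.

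With that limit, spe-9 (I:11582743–11586069) summed to 157 RPKM in N2, 105 in the wild-type hrde-1 mutant, 71.3 at F5 and 82.6 at F20. In set-32(ok1457) it summed to 55.4, 94.1, 164 and 168 RPKM, in set-32(red11) to 44.1, 71.2, 87.8 and 79.5, and in met-2 set-25 to 78.5, 76.7, 90.3 and 83.6. Unlike the msp, ssp and gsp sums, it was highest in a repaired set-32(ok1457) library and lowest in never mutant set-32(red11). The bin shared with C17D12.5 was at 57.7 and 69.9 RPKM in repaired set-32(ok1457) at F8 and F20, at 59.5 RPKM in N2 and listed at 0 in never mutant set-32(ok1457).

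spe-11, which codes for a protein that the sperm brings to the egg, and spe-38, which codes for a sperm membrane protein needed for fertilization, were low outside N2. spe-11 summed to 52.2 RPKM in N2 and to at most 21.2 elsewhere, 39.2 of the 52.2 RPKM lying in a bin with 169 bp of the gene that F48C1.9 also overlaps. spe-38 summed to 45.9 RPKM in N2 and to at most 11.8 elsewhere, and 43.0 RPKM of the N2 value lay in the bin shared with impt-1. Both of these shared bins passed the filter only through N2, so their values in comparisons that include N2 carry that limit. The bins of these genes that hold no other gene had means of 2.43 RPKM for spe-11 and 0.0231 and 0.574 RPKM for spe-38.

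fer-1 (I:8623012–8631202) codes for a ferlin needed for the fusion of sperm membrane organelles. No bin of its 9 passed the filter, with bin means of 0.129 to 3.90 RPKM. Summed over 9 bins it was at 29.7 RPKM in N2, about 20.5 reads, then 6.48, 6.98 and 6.31 in the other wild-type libraries. In set-32(ok1457) it was at 13.9, 14.9, 10.1 and 1.77 RPKM, in set-32(red11) at 17.4, 7.21, 3.01 and 3.13, and in met-2 set-25 at 9.30, 1.17, 9.37 and 15.3. The lowest of these sums is less than 1 read.

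Across the 40 bins tested, N2 was the highest of the 16 libraries in 28 (70.0%), against 8.58% of all bins tested. Never mutant set-32(ok1457) was lowest, or tied for lowest, in 35 (87.5%), against 5.99% of all bins. These 2 libraries were singled out after their values were seen, and the shares are a description with no test. The tested bins of spe-11 (mean 5.87 RPKM, 39.2 in N2) and spe-38 (mean 6.89 RPKM, 43.0 in N2) passed the 5 RPKM filter only through N2. Both count among the 28. N2 was also the lowest library in 15.5% of all bins, and in 0 of the 40 sperm gene bins. The msp bins gave 20 of 27 (74.1%) highest in N2 and 26 of 27 (96.3%) lowest in never mutant set-32(ok1457).

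**Figure D3:**
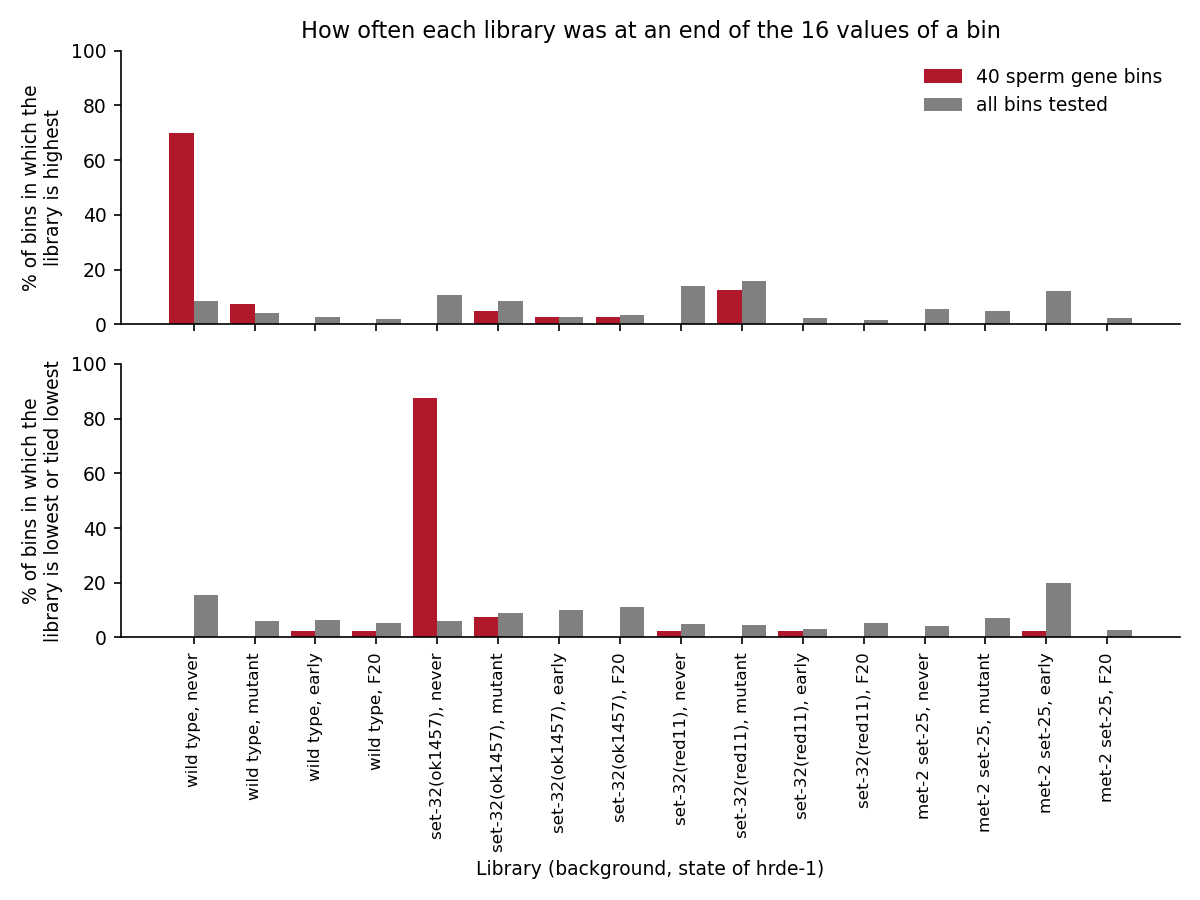
Percentage of bins (vertical axes) in which each library (horizontal axis) was the highest, above, or the lowest or tied lowest, below, of the 16, for the 40 sperm gene bins and for all 25407 bins tested. N2 was highest in 70.0% of the sperm gene bins and never mutant set-32(ok1457) lowest in 87.5%, against 8.58% and 5.99% of all bins.

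Sperm genes that are not members had the same libraries at the ends. Their values are not separate from those of the members, here and in the medians below. The msp-142 bin also holds msp-63, 1 msp-79 bin also holds ssp-36, and msp copies may share reads. The 10 other msp genes summed to 466.5 RPKM in N2 and 51.4 in never mutant set-32(ok1457), and to 139 to 294 in the other 14. A list of 59 other genes was drawn up for the sperm programme, such as the spe, ssp, msd and nspd genes. It also holds the phosphatase genes gsp-1 and gsp-2, whose part in the sum was not separated. This list summed to 4481 and 1477 RPKM in the same 2 libraries and to 1804 to 3872 in the others. The 8 oocyte genes, with the yolk receptor gene rme-2 among them, summed to 656 RPKM in N2 and 1015 in never mutant set-32(ok1457), within the 573 to 1363 RPKM of the other 14. The 10 genes of sperm fate, such as fog-1 and fog-3, were lowest in N2 (809 RPKM) and highest in never mutant set-32(ok1457) (1448 RPKM). Never mutant set-32(red11) was close to the latter, at 1441 RPKM. This list split with the table totals, at 1111 to 1448 RPKM in the 5 libraries with high totals and 809 to 1002 in the other 11. Factors of the sperm small RNA pathway included alg-3, alg-4 and the RNA-dependent RNA polymerase gene rrf-3. These factors summed to 977 RPKM in N2, 1147 in never mutant set-32(ok1457) and 933 to 1957 elsewhere. Muscle and hypodermis markers were highest in N2 as well, at 1178 and 373 RPKM. N2 was also the deepest library and the only 1 with the name prefix SG1116. Never mutant set-32(ok1457) is of the 5 libraries with high table totals, whose other 4 members had msp sums of 435 to 876 RPKM. The part of these features in the N2 and set-32(ok1457) levels was not tested.

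**Figure D4:**
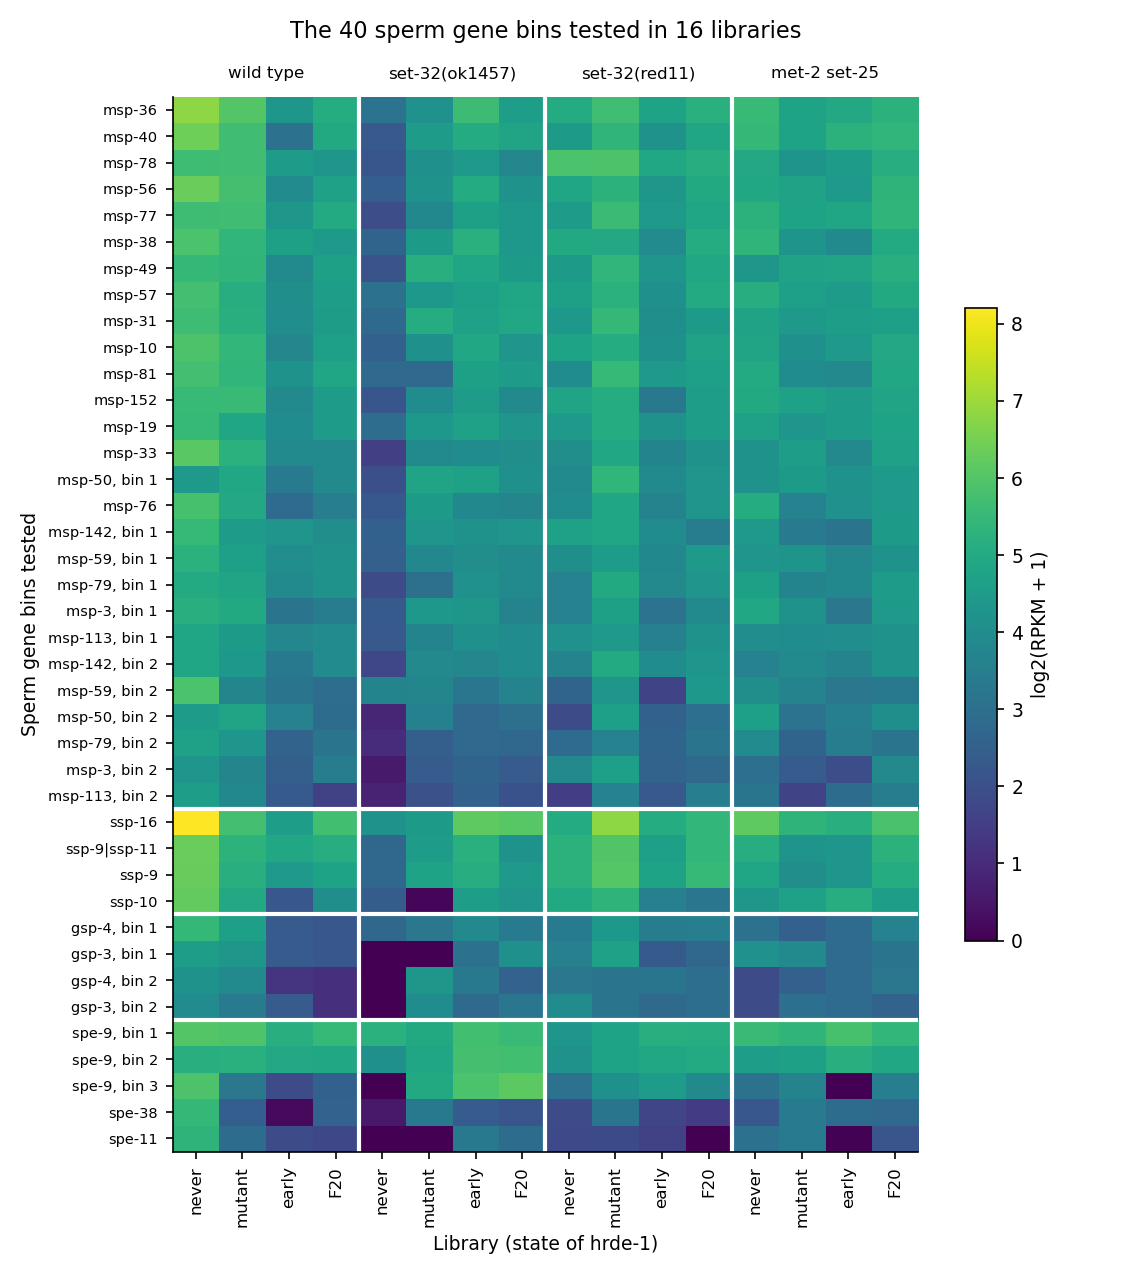
log2(RPKM + 1) (colour) in each of the 40 sperm gene bins tested (rows, grouped as msp, ssp, gsp and spe and ordered by mean within each, bins of 1 gene numbered from the highest mean) in the 16 libraries (columns, by background and state of hrde-1). The N2 column is the brightest and the never mutant set-32(ok1457) column the darkest over most rows; ssp-16 in N2 (295.2 RPKM) is the highest value.

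Loss of hrde-1 was examined first among the comparisons, with the background as a block. limma called 0 of the 40 sperm gene bins at an adjusted p under 0.05, and 1.14% of all bins (289 of 25407, 108 higher and 181 lower in mutants). At an unadjusted p under 0.05, 1 sperm gene bin was higher and 0 lower, against 1252 higher and 1521 lower of all 25407 bins. The median difference over the 40 bins was 0.30 on the log2(RPKM + 1) scale, with 34 bins above 0, against 0.05 for all bins. Family medians were 0.32 for msp, −0.08 for ssp, 0.54 for gsp and 0.35 for spe.

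The highest differences were in a bin of msp-50, with 29.6 ± 8.52 RPKM in mutants against 13.7 ± 7.58 without a mutation (SD, n = 4 each; log2 difference 1.26 ± 0.47 SE, limma adjusted p = 0.349), in a bin of gsp-4 (1.13 ± 0.79) and over msp-49 (1.08 ± 0.51). The lowest were in ssp-10, at 23.7 ± 16.9 against 32.2 ± 29.8 RPKM (−0.71 ± 0.51, limma adjusted p = 0.691), spe-11 (−0.52 ± 0.70) and ssp-16 (−0.31 ± 0.57). In the msp-50 bin, at II:5200001–5201000, the mutants had 21.1, 29.2, 26.8 and 41.3 RPKM in met-2 set-25, wild type, set-32(ok1457) and then set-32(red11). The never mutant libraries had 17.5, 20.4, 3.05 and 14.0 RPKM in the same order. This bin was picked as the highest of the 40, and the test was not passed.

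The pooled values joined opposite directions. In wild type the mutant had 0.700 times the msp sum of N2, and for met-2 set-25 0.679 times that of the never mutant library. In set-32(ok1457) the mutant had 3.88 times, and in set-32(red11) 1.71 times, the sum of the never mutant library. The ssp sums went the same way in each background, with ratios of 0.284, 0.640, 2.03 and 2.08 in wild type, met-2 set-25, set-32(ok1457) and set-32(red11). The ratio in set-32(ok1457) rests on few reads, about 12.1 in the never mutant library, while 1 read in its mutant is worth 4.26 RPKM. Of the 4 ssp bins tested in that pair, 3 were above 0 and 1 below, that of ssp-10. For gsp the ratios were 0.678 in wild type, 1.02 in met-2 set-25 and 1.37 in set-32(red11). The set-32(ok1457) mutant had a gsp sum of 42.8 RPKM and the never mutant library of that background 5.72 RPKM, or about 10 and 2 reads, too few for a ratio.

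Per bin, the median of the 40 differences was −0.53 in wild type (6 above 0 and 34 below; all bins 0.32) and −0.43 in met-2 set-25 (11 above and 29 below; all bins −0.03). It was 1.77 in set-32(ok1457) (36 above and 2 below; all bins −0.02) and 0.78 in set-32(red11) (37 above and 3 below; all bins −0.01). The 10 other msp genes had medians of −0.70, −0.10, 1.41 and 0.55 in wild type, met-2 set-25, set-32(ok1457) and set-32(red11), and the other sperm genes −0.47, −0.19, 1.03 and 0.55.

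This difference between backgrounds was tested with a contrast of the effect in the set-32 backgrounds minus that in the other 2, a test added after the sums were seen. limma called 0 of the 40 bins and 0% of all bins, while the unadjusted p was under 0.05 for 771 bins with higher and 1086 with lower values. Of the sperm gene bins, 19 were higher and 0 lower at that level, and the lowest adjusted p among them was 0.56. The median contrast was 1.79 on the log2 scale, with 39 of 40 bins above 0, against −0.19 for all bins. It was led by a bin of spe-9 shared with C17D12.5 (4.05 ± 1.49 SE, limma adjusted p = 0.649) and by bins of msp-50 (3.36 ± 0.95) and spe-38 (2.97 ± 1.49), and ssp-10 was the bin below 0 (−0.50 ± 1.02). The lowest of the others were both spe-9 bins with tRNA genes (0.22 ± 0.58 and 0.55 ± 0.63). The 4 never mutant libraries on which the contrast rests include N2 and never mutant set-32(ok1457); without the wild-type pair the median was 1.63 and without the set-32(ok1457) pair 1.32, and 0 bins were called in either. The medians of the other msp genes and the other sperm genes were 1.59 and 1.12 and those of oocyte and sperm fate genes −0.31 and −0.23, with 0 bins called. Somatic lists moved as well: the median contrast was 0.82 for muscle (13 of 14 bins above 0), 0.54 for hypodermis (2 of 2 bins above 0) and −0.71 for intestine (25 of 36 bins below 0), and their part in the sperm gene values was not tested. The 4 libraries of the set-32 backgrounds all have the library name prefix SG0717 and the higher table totals, while the other 4 have SG0315 or SG1116 and the lower totals, so the set-32 genotype, the prefix and the table total cannot be told apart in this contrast.

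**Figure D5:**
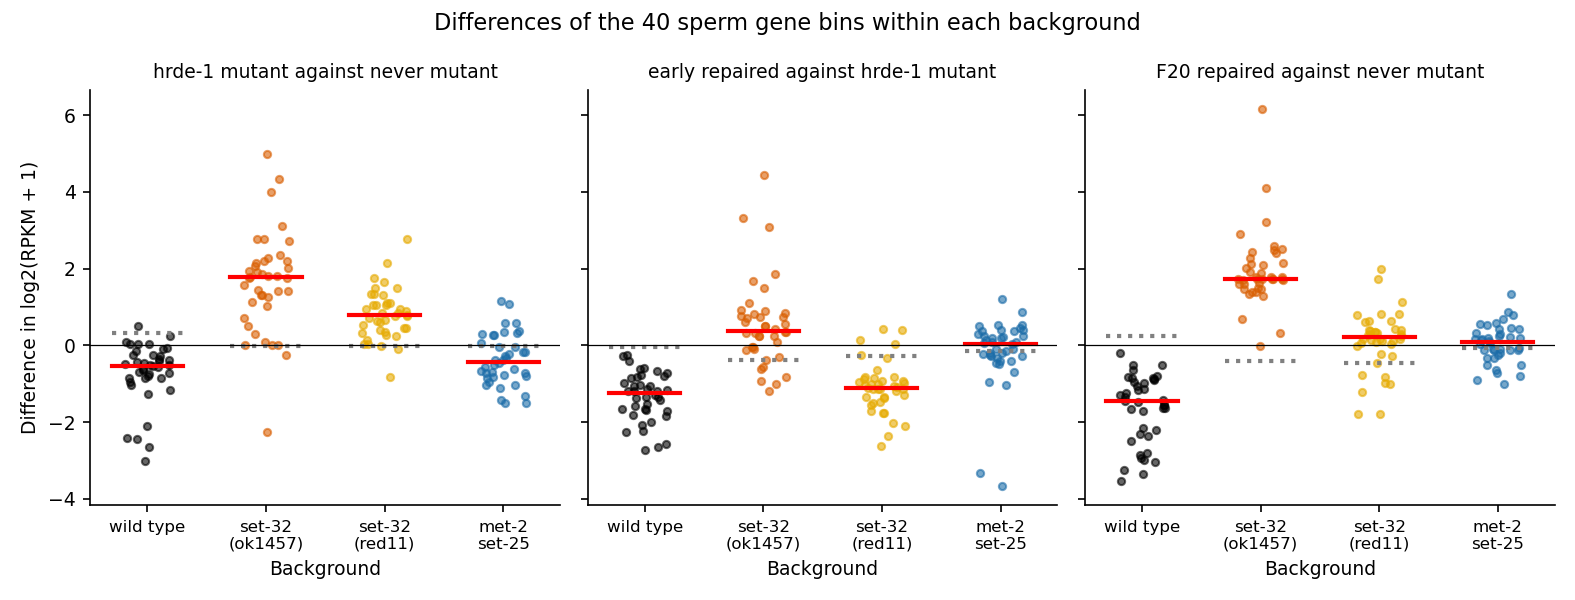
Differences in log2(RPKM + 1) (vertical axis) of the 40 sperm gene bins (points) within each background (horizontal axis) for 3 comparisons; red bars are the medians of the 40 bins and dotted grey bars those of all bins tested, and points are shifted sideways at random. For hrde-1 mutant against never mutant the medians are below 0 in wild type (−0.53) and met-2 set-25 (−0.43) and above 0 in set-32(ok1457) (1.77) and set-32(red11) (0.78).

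Early repair was compared with the mutant state. limma called 0 of the 40 sperm gene bins and 0.0433% of all bins (11, all lower). At an unadjusted p under 0.05, 0 sperm gene bins were higher and 1 lower, against 563 higher and 1453 lower of all 25407 bins. The median was −0.47, with 37 bins below 0, against −0.22 for all bins. All 27 msp bins were below 0, at −1.10 to −0.13, and all 4 gsp bins, at −0.82 to −0.55. The lowest bins were those of spe-38 shared with impt-1, at 3.28 ± 2.67 RPKM in early repaired libraries and 7.76 ± 2.27 in mutants (−1.28 ± 0.70 SE, limma adjusted p = 0.657), of msp-3 at II:4786001–4787000, at 10.9 ± 5.58 against 23.2 ± 5.84 RPKM (−1.10 ± 0.46, adjusted p = 0.628), and of msp-59 (−1.05 ± 0.58). The highest were bins of spe-9 with tRNA genes (0.32 ± 0.36 and 0.19 ± 0.37) and of ssp-10 (0.09 ± 1.0). For ssp-10 mean RPKM went the other way, at 17.8 ± 13.2 early against 23.7 ± 16.9 in mutants.

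Within backgrounds the early repaired libraries had 0.387 times the msp sum of the mutant in wild type and 0.429 times in set-32(red11), against 1.27 times in set-32(ok1457) and 0.996 times in met-2 set-25. Per bin the medians were −1.25 in wild type (0 of 40 above 0), −1.10 in set-32(red11), 0.38 in set-32(ok1457) and 0.04 in met-2 set-25. The early repaired library of met-2 set-25 is the shallowest, with 3 reads worth 18.9 RPKM.

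At F20 against the mutant state limma called 0 of the 40 bins and 0.134% of all bins (34, of which 33 lower). The unadjusted p was under 0.05 for 0 sperm gene bins, and for 705 higher and 1893 lower of all 25407 bins. The median of −0.17 lay beside −0.21 for all bins and was above 0 once log2 values were centred on each library's median (0.03) or libraries were rescaled to the same sum (0.01). The highest bins were those of msp-81 (0.31 ± 0.48 SE), spe-9 (0.28 ± 0.33) and ssp-10 (0.26 ± 0.87), and the lowest those of gsp-4, at 5.40 ± 3.14 RPKM against 11.5 ± 6.48 (−0.99 ± 0.66, limma adjusted p = 0.59), gsp-3 (−0.91 ± 0.55) and spe-38 (−0.84 ± 0.58). Mean RPKM went the other way for msp-81 (25.6 ± 3.27 at F20 against 26.5 ± 18.9) and ssp-10 (16.5 ± 6.25 against 23.7 ± 16.9). For spe-9 it was 35.6 ± 10.9 against 28.6 ± 5.21 RPKM. All 4 gsp bins were below 0, the lowest family median being −0.70. In wild type the gsp sum was 9.76 RPKM at F20 and 66.9 RPKM in the mutant. With 3 reads in a bin worth 7.33 RPKM in that F20 library, no ratio is given. In met-2 set-25 the F20 sum was 1.08 times that of the mutant.

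Repaired libraries were then compared with never mutant ones. limma called 0 of the 40 bins and 0% of all bins both early (unadjusted p under 0.05 in 205 bins with higher and 702 with lower values) and at F20 (271 and 807), and 0 sperm gene bins had an unadjusted p under 0.05 at either time. Medians were −0.14 early and 0.14 at F20, beside −0.17 for all bins at both times. Early, the differences ran from −1.25 ± 0.58 over a bin of msp-59 (6.71 ± 3.02 against 22.6 ± 23.7 RPKM), −0.83 ± 1.18 over spe-11 and −0.73 ± 1.17 over spe-38 to 0.67 ± 0.44 over spe-9, 0.39 ± 0.65 over msp-50 and 0.39 ± 0.66 over msp-49 (SE; limma adjusted p = 1 for each). At F20 they ran from −0.84 ± 1.03 over spe-11, −0.49 ± 0.70 over gsp-4 and −0.49 ± 0.69 over msp-59 to 1.01 ± 1.22 over the spe-9 bin shared with C17D12.5, 0.70 ± 0.53 over msp-49 and 0.65 ± 0.55 over msp-142 (adjusted p of 0.958 to 0.98).

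The 4 backgrounds differed in this comparison too. At F20 all 40 sperm gene bins were below N2 in wild type (median −1.47) and 39 of 40 were above the never mutant library in set-32(ok1457) (median 1.74). The medians were 0.21 in set-32(red11) and 0.09 in met-2 set-25. The msp sum at F20 was 0.377 times that of the never mutant library in wild type, 3.95 times in set-32(ok1457), 1.11 times in set-32(red11) and 0.985 times in met-2 set-25. Without wild type the pooled F20 median was 0.65, and without set-32(ok1457) −0.38; early, these values were 0.45 and −0.97. These comparisons share the never mutant libraries with that of hrde-1 loss.

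The set-32 backgrounds were compared with wild type with the state as a block. limma called 0 of the 40 bins and 0% of all bins, while the unadjusted p was under 0.05 for 2230 bins with higher and 754 with lower values. Of the sperm gene bins 0 were higher and 1 lower at that level. The median was −0.60, against 0.17 for all bins, and all 27 msp bins and all 4 ssp bins were below 0. The lowest bins were those of spe-11, at 2.84 ± 3.32 RPKM (n = 8) against 12.7 ± 17.7 (n = 4) (−1.54 ± 0.89 SE, limma adjusted p = 0.52), msp-50 (−1.18 ± 0.51, adjusted p = 0.398) and msp-79 (−1.01 ± 0.54). The highest were those of spe-9 beside C17D12.5 (0.66 ± 1.01), gsp-4 (0.22 ± 0.76) and gsp-3 (0.14 ± 0.73). For gsp-4 mean RPKM went the other way, at 8.09 ± 5.38 in set-32 against 8.51 ± 8.44 in wild type. By state the median was −2.32 with hrde-1 never mutant (0 of 40 above 0), −0.47 in mutants, 0.39 in early repaired libraries and 0.08 at F20. Without the never mutant state the pooled median was −0.07, and with a term for the class of table totals it was 0.31. The median was −0.89 with set-32(ok1457) alone and −0.30 with set-32(red11) alone.

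For met-2 set-25 against wild type, limma called 0 of the 40 bins and 0.287% of all bins (73, of which 37 higher). The unadjusted p was under 0.05 for 0 sperm gene bins, and for 1998 higher and 1106 lower of all 25407 bins. The median was −0.27 against 0.11 for all bins. The differences ran from −0.85 ± 0.72 SE over the spe-9 bin beside C17D12.5, −0.81 ± 0.69 over spe-11 and −0.73 ± 0.41 over msp-142 (14.8 ± 7.12 against 25.2 ± 13.1 RPKM, n = 4 each; limma adjusted p = 0.511) to 0.33 ± 0.66 over ssp-10, 0.17 ± 0.39 over msp-50 and 0.17 ± 0.51 over msp-40. By state the medians were −1.01 with hrde-1 never mutant, −0.82 in mutants, 0.50 early and 0.39 at F20. Without the never mutant state the pooled median was 0.001.

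The lists of other genes gave 0 called bins in these 7 comparisons. In set-32 against wild type the 12 tested bins of other msp genes had a median of −0.39 and the 80 of other sperm genes −0.23, while the 51 bins of the sperm small RNA factors had 0.44 and the 30 oocyte bins 0.30. For loss of hrde-1 the medians were 0.30, 0.21, 0.10 and 0.34 in the same order. For early repair against the mutant they were −0.43, −0.46, −0.47 and −0.58. Somatic lists differed by more than these in some comparisons. In set-32 against wild type the medians were −2.54 for intestine (36 of 36 bins below 0) and −1.82 for muscle (13 of 14), and the 2 hypodermis bins had −3.20 and −2.79. For early repair against the mutant they were 1.36 for intestine (36 of 36 bins above 0), 0.79 for hypodermis (2 of 2) and 0.34 for muscle (9 of 14). For loss of hrde-1 they were 0.12, −0.27 and −0.26. The values for early repair joined opposite directions. The early intestine sum was 0.355 times that of the mutant in wild type and 0.0708 times in met-2 set-25. It was 61.8 times in set-32(ok1457) and 29.2 times in set-32(red11). Repaired set-32 libraries had intestine sums above repaired wild type. They were 9002 and 5196 RPKM against 4414 early, and 7453 and 8285 against 4731 at F20. The part of the somatic lists in the sperm gene values was not tested.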

How the data were processed

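Small RNA of young adult hermaphrodites was extracted with a mirVana kit and cloned independently of a 5′ monophosphate, per the labels' protocols. The authors deposited a table of RPKM values per 1000 bp bin; the submitters' processing notes list Bowtie 0.12.7. Not given in the sources used here are the genome build, the basis of the library scaling and how reads with several matches were counted. The 16 columns were matched to samples by library name, and 27 other library columns were not used. None of the member bins carries the table's GRH, GRTS or misanotated marks (0, 0 and 0).

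Bins were matched to WBcel235 genes (Ensembl, either strand), and in all 13 windows of 1 Mb that hold members values fitted the annotation best at shift 0 among shifts of up to 8 kb. Reads were not separated by strand or length, so siRNAs and mRNA fragments add up. Values were analysed as log2(RPKM + 1), which understates changes of low bins, in bins whose mean reached 5 RPKM. limma 3.58.1 (R 4.3.3; lmFit, eBayes with trend) was run with background or state as a block, two-sided, with Benjamini-Hochberg adjustment over 25407 bins and an adjusted p under 0.05 called. No sequences are given, and depth was inferred from the step between low values, which covers counting error only.

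The members, lists and tests were chosen with earlier results of these data known. By the rule for named genes, the gene of highest mean in each family and the 3 highest and 3 lowest bins of each comparison are described. Alternatives changed the pseudocount, filter, scaling, bins, fit and libraries.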

Additional observations from a re-analysis of the deposited data

Results flagged for a closer look

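In the 4 F20 libraries, the sum over the 3 spe genes in set-32(ok1457) stood apart from the other 3, at 179.18 RPKM against 93.2 to 103.6. The sum over spe-9, which makes up most of it, did so too, at 168.08 RPKM against 79.5 to 83.6. Over 36 groups of 4 libraries examined for a distant value, chance would mark about 1 in 20, and these 2 were marked. The spe-9 bins with most of this signal also hold tRNA genes or C17D12.5.

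For several family sums both set-32 backgrounds lay on the same side of 0 and both other backgrounds on the opposite side. All families and state comparisons were scanned by sign alone, and these differences between sums were not tested. Some log2 differences lay near 0. For F20 against never mutant, ssp was at −2.069 in wild type, 1.874 in set-32(ok1457), 0.019 in set-32(red11) and −0.009 in met-2 set-25. In that comparison msp was at −0.022 in met-2 set-25. For spe, met-2 set-25 was at −0.01 for mutant and −0.059 for early repaired against never mutant. For hrde-1 mutant against never mutant, the mean log2 difference in the set-32 backgrounds minus that in the others was 1.896 for msp (1.36 against −0.54), 2.25 for ssp (1.03 against −1.22) and 1.345 for spe (0.82 against −0.53). For F20 against never mutant it was 1.777 for msp and 1.986 for ssp, for early repaired against never mutant 2.134 for spe, and for early repaired against mutant −1.952 for fer-1, where sums were as low as 1.17 RPKM, less than 1 read. The contrast per bin for hrde-1 loss called 0 of 40 sperm gene bins.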

How the results depend on the processing

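With limma, 115 of 116 alternative fits called 0 sperm gene bins. The exception was early repaired against never mutant in the set-32 pairs alone, whose libraries share a name prefix: 1 of the 40 bins was higher, that of spe-9 beside C17D12.5 (I:11586001–11587000; log2 difference 3.67 ± 0.90 SE, limma adjusted p = 0.0363). Of all 25407 bins, 652 were called in that fit, a share close to 1 of 40. Several medians changed sign. Leaving out 1 background gave −0.11 to 0.55 for hrde-1 loss, −0.80 to −0.20 for early repaired against mutant, −0.35 to 0.05 for F20 against mutant, −0.97 to 0.45 for early repaired against never mutant, −0.38 to 0.65 for F20 against never mutant and 1.32 to 2.24 for the contrast of hrde-1 loss between backgrounds. Leaving out 1 state gave −0.83 to −0.07 for set-32 and −0.55 to 0.001 for met-2 set-25. The pairs sharing a name prefix gave 0.89 for early repaired against never mutant, and the table-total class as a term gave −0.69 for F20 against never mutant and 0.31 for set-32 against wild type. The cause was not tested. The class term could not be fitted for hrde-1 loss, because each pair of libraries lies in 1 class. With 1 background left out of an arm of the contrast, the lone background is assumed to vary like the others. At 3 reads worth 4.35 to 18.9 RPKM, differences in bins of a few RPKM were not detectable.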
